A study of Mus musculus with 9 samples.

Results

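The SR proteins, the heterogeneous nuclear ribonucleoproteins (hnRNPs), the proteins of the spliceosomal snRNPs and the subunits of SF3a and SF3b were followed by 3′ RNA sequencing in mouse gastrocnemius, a calf muscle. Genes were taken by symbol alone: Srsf followed by a number, and every symbol starting with Hnrnp, Snrp, or Sf3a or Sf3b with a number. The rule took 52 of the 23238 symbols counted: 11 SR protein genes, 20 hnRNP genes, 12 snRNP protein genes and 9 SF3a or SF3b genes. All mice were female C57BL/6, an inbred strain, given as 4 weeks old, and each of the 3 groups gave 3 libraries. RP mice had 100 mg/kg RP in distilled water by mouth on 9 consecutive days together with 4 intraperitoneal doses of 3 mg/kg cisplatin, 1 every other day. Cisplatin mice had the same cisplatin doses with distilled water by mouth, and Normal mice had saline injections with distilled water by mouth. Cisplatin is a platinum drug that crosslinks DNA and is given here to bring on muscle wasting. RP appears in the labels only as an abbreviation, and the series title names an extract of Paeonia lactiflora. No group had RP without cisplatin, and the sources used here do not say when the muscle was taken.

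Introns are removed by the spliceosome, which assembles on each pre-mRNA from small nuclear ribonucleoproteins, each an snRNA with its proteins. Sm proteins form a ring around the snRNA, U1 proteins help it bind the 5′ splice site, and SF3a and SF3b hold U2 on the branch point. SR proteins mostly promote the use of exons to which they bind, and hnRNPs coat pre-mRNA and often repress exons, so the balance between them shapes alternative splicing. Muscle relies on alternative splicing for the isoforms of many contractile proteins. The counts measure transcript ends of these genes and not splicing itself.

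Promoter sequence is shown for 6 genes that were called in Cisplatin against Normal, as examples of a gene with CCAAT boxes (Hnrnpa1), of promoters with GC boxes and no CCAAT box of genes that rose (Hnrnpu and Sf3b1), of a gene that rose without any motif searched (Snrpe), and of genes that fell (Srsf1 and Srsf9). Each is the 250 bases before the RefSeq start on GRCm38.p6, written 5′ to 3′ on the gene's strand: Hnrnpa1 at chr15:103240147-103240396 (plus), Hnrnpu at chr1:178337816-178338065 (minus), Sf3b1 at chr1:55027479-55027728 (minus), Snrpe at chr1:133610281-133610530 (minus), Srsf1 at chr11:88047123-88047372 (plus) and Srsf9 at chr5:115326927-115327176 (plus). Capitals mark a CCAAT box (CCAAT or ATTGG), a GC box (GGGCGG or CCGCCC) or, in Srsf9, the heat shock half-site pair GAANNTTC.
Hnrnpa1: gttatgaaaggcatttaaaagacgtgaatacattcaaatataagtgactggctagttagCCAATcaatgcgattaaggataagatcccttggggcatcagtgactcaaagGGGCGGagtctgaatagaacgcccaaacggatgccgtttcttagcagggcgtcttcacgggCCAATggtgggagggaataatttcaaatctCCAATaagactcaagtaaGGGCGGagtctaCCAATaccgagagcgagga
Hnrnpu: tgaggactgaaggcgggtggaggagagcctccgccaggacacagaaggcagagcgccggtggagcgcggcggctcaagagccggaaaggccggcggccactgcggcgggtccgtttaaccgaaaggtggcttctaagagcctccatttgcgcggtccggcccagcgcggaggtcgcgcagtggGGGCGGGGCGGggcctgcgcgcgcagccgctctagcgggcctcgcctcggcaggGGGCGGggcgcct
Sf3b1: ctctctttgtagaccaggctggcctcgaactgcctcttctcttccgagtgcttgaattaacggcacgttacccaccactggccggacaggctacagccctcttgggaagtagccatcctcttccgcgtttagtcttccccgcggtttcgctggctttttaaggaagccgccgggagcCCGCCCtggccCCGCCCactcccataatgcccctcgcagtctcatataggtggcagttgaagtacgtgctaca
Snrpe: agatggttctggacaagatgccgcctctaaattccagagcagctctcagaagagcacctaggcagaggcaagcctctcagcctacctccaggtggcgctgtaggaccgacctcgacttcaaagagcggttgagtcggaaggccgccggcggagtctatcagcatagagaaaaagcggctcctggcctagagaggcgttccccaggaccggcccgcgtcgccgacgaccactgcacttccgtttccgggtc
Srsf1: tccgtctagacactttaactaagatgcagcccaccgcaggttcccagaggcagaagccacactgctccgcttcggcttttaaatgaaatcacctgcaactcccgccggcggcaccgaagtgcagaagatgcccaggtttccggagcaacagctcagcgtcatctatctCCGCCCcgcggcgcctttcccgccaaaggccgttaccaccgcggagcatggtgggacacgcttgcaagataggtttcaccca
Srsf9: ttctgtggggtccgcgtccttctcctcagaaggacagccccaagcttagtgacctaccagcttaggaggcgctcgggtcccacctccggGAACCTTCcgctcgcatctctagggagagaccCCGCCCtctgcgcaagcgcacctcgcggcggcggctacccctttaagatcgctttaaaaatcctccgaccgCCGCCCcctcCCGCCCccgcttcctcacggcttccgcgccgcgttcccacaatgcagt

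Of the 52 genes, 46 had a promoter in the RefSeq table, 9 of them with several starts; Hnrnpll, Hnrnpul2, Sf3b4, Sf3b5, Snrpb and Snrpd1 are named only. The 63 windows had a median GC content of 60.8%, against 52.4% over all 32851 windows of the same length. A GC box on either strand stood in 33 of the 46 genes (71.7%), against 35.4% of all genes with a window and 32.7% of all windows. A CCAAT box stood in 22 of the 46 (47.8%), against 37.5% of all genes and 33.8% of all windows. The ETS letters CCGGAAGT were found in 7 of the 46 (15.2%), against 3.23% of all genes and 2.88% of all windows. The FoxO letters GTAAACA were found in 2 (Snrpf and Srsf6), against 3.54% of all genes and 3.17% of all windows, and GAANNTTC in 6, against 7.73% and 6.69%. Among genes with a window that rose in Cisplatin against Normal, 19 of 27 held a GC box and 12 of 27 a CCAAT box. Among those that fell, 3 of 5 held each. Among those not called, with the untested Srsf12, 11 of 14 held a GC box and 7 of 14 a CCAAT box. Hnrnpa1, printed above, holds 4 CCAAT boxes and 2 GC boxes in a window of 46.0% GC, whereas the Hnrnpu window is 73.6% GC with 3 GC boxes, 2 of which overlap. These matches describe the letters in the windows and were not set against binding.

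Library totals were 8196030 to 10678342 counts, of which the 52 genes took 0.317 to 0.332% in RP, 0.410 to 0.429% in Cisplatin and 0.279 to 0.287% in Normal. Levels are CPM, counts scaled to a fixed library total, after TMM scaling, which sets libraries to a common scale from the bulk of their genes. As 1 tag is read near the end of each transcript, CPM is not divided by transcript length. Cisplatin replicate 3 stood apart with a TMM factor of 0.8504, against 0.9859 to 1.0909 in the other 8 libraries. The labels do not say that each library came from its own mouse, so p-values measure only the spread between these libraries. Markers of muscle fibres summed to 119900 to 138700 CPM in RP, 79860 to 97450 in Cisplatin and 108800 to 127000 in Normal, and 5 of 10 fell in Cisplatin against Normal with none rising. All 6 fibroblast and matrix markers fell (358.5 to 750.5 CPM summed in Cisplatin, 3291 to 5457 in Normal), as did all 4 erythroid (33.96 to 60.32 in Cisplatin, 4114 to 8894 in Normal) and all 4 adipocyte markers (43.07 to 209.1 in Cisplatin, 189.9 to 1350 in Normal). The falls also covered 5 of 6 macrophage markers (with 1 rising), 3 of 6 endothelial, 3 of 4 Schwann cell and 1 of 3 satellite cell markers. Beside these, 28.2% of all genes tested fell, near the share of the satellite cell markers. Of the neutrophil markers, 1 of the 3 tested rose, and of 4 lymphocyte markers only Ptprc was tested and fell, Cd3e and Cd79a being at 0 in every Cisplatin library. In RP the summed fibroblast, erythroid and adipocyte markers were 2015 to 3111, 64.07 to 405.2 and 769.3 to 1027 CPM. The part of these shifts in the results below was not tested, and in bulk tissue fewer cells of a type cannot be told apart from less RNA per cell.

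Most of the splicing genes stood higher in Cisplatin than in either other group. Against Normal, 30 of the 51 genes tested rose in Cisplatin, 6 fell and 15 were not called (edgeR's quasi-likelihood test, Benjamini-Hochberg adjusted p under 0.05 over 12859 genes). Of all genes tested, 54.5% were called, 26.3% higher and 28.2% lower. The median log2 fold change of the 51 was 0.62, against -0.08 over all genes tested, and 41 of 51 were positive, against 6061 of 12859. In RP against Cisplatin, 27 fell, 6 rose and 18 were not called, where 48.8% of all genes were called, 24.2% lower and 24.6% higher. The median was -0.48, against 0.07 over all genes. In RP against Normal only Hnrnpa1 was called, where 0.505% of all genes were called, 0.187% higher and 0.319% lower, and the median was 0.09, against -0.01. The Cisplatin and Normal libraries did not overlap for 35 genes that were higher and 6 that were lower in Cisplatin, where 62.2% of all genes were without overlap (30.3% higher, 31.9% lower). For RP and Cisplatin 29 genes were lower and 6 higher without overlap, where the share of all genes was 56.8% (27.8% lower, 29.0% higher). For RP and Normal 11 were higher and 1 lower without overlap, where the share of all genes was 19.2% (9.65% higher, 9.53% lower). The first pair of comparisons share the Cisplatin libraries, and the opposite signs are therefore not independent measurements. Without Cisplatin replicate 3, 28 rose and 5 fell in Cisplatin against Normal, and 26 fell and 5 rose in RP against Cisplatin. One gene was not tested: Srsf12, an SR protein gene, had no count in the RP and Normal libraries and 0.235, 0.190 and 0.119 CPM in the Cisplatin libraries.

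**Figure D1:**
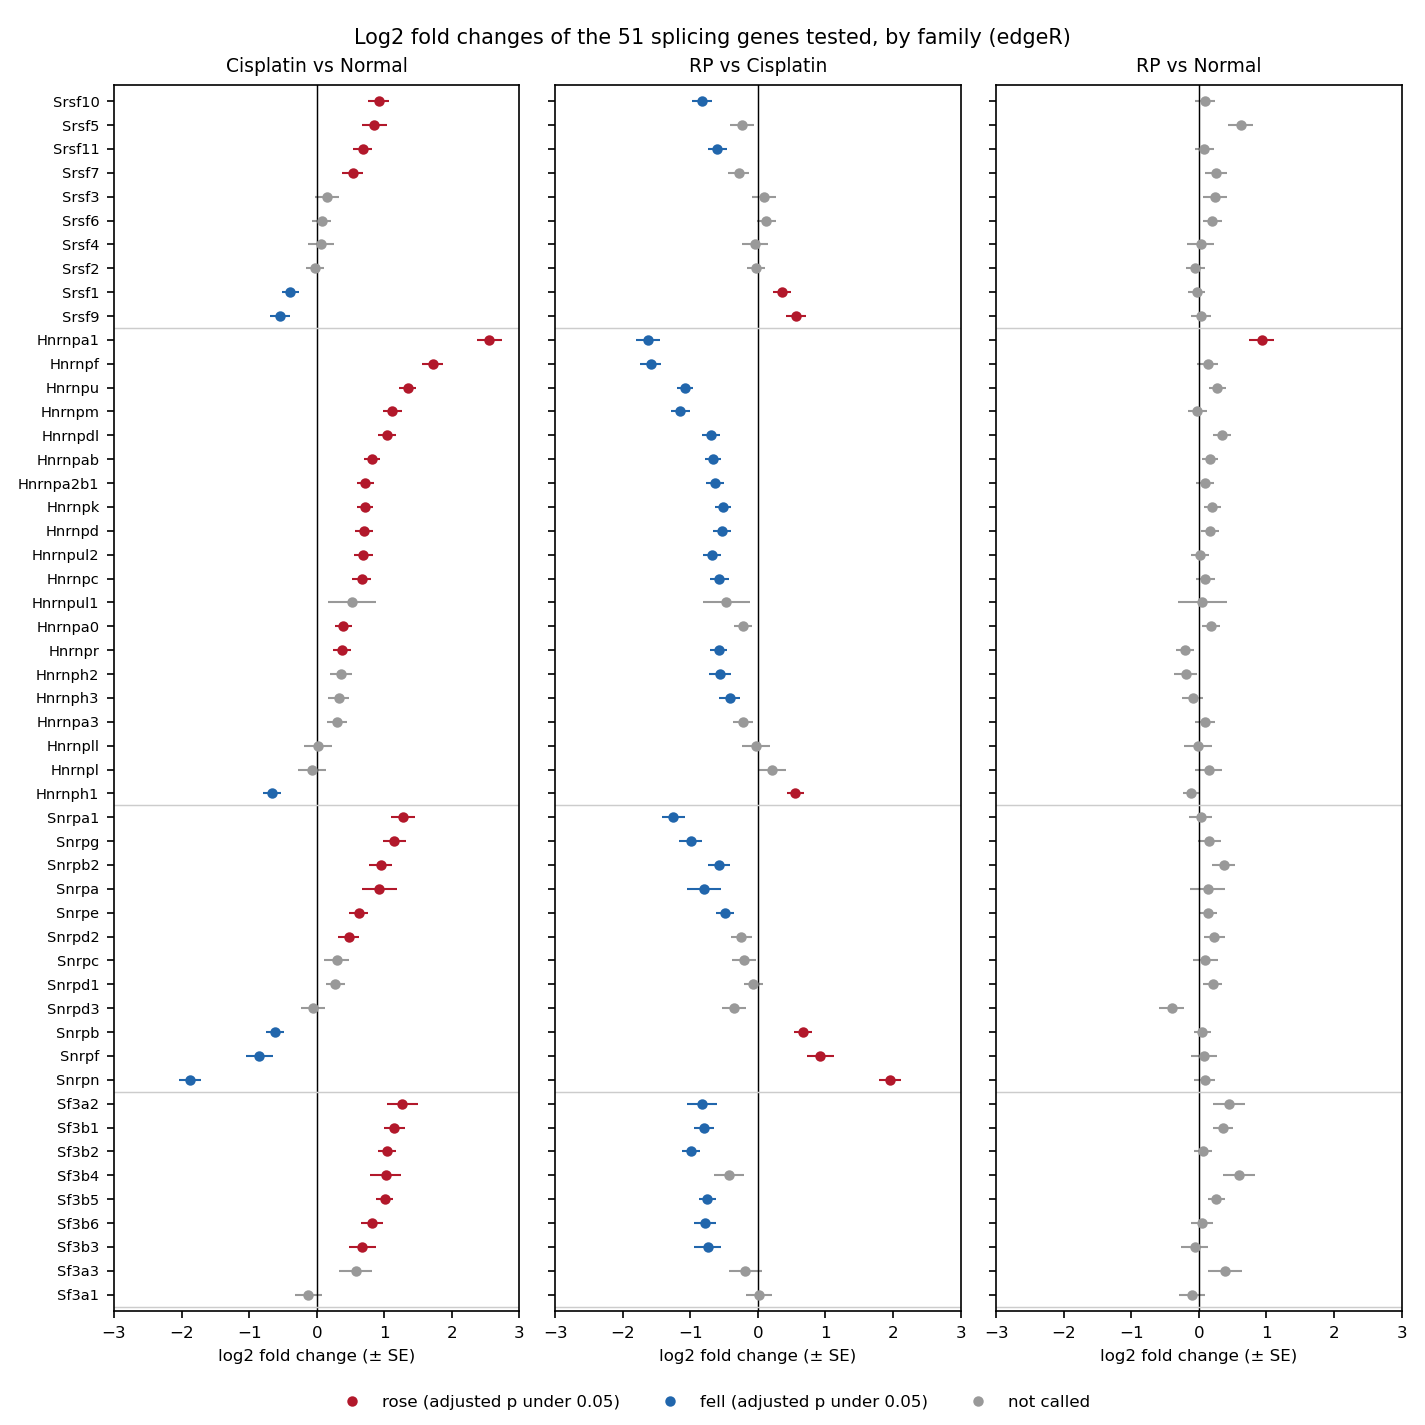
Log2 fold changes with SE (x axis) of the 51 genes tested, by family from top to bottom, with Cisplatin against Normal on the left, RP against Cisplatin in the middle and RP against Normal on the right. Red points rose, blue points fell and grey points were not called: 30 of 51 are red and 6 blue on the left, 27 blue and 6 red in the middle, and only Hnrnpa1 is coloured on the right.

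The families differed in how far their summed levels lay apart between groups. SF3a and SF3b genes summed to 421.7 to 450.6 CPM in RP, 689.0 to 864.8 in Cisplatin and 375.3 to 396.9 in Normal, 1.98 times as high in Cisplatin as in Normal by the means. The hnRNP genes summed to 1341 to 1586 CPM in RP, 2215 to 2354 in Cisplatin and 1277 to 1336 in Normal, a ratio of 1.74. In both families every Cisplatin library lay above every other library. The snRNP proteins summed to 592.7 to 629.1 CPM in RP, 657.3 to 875.7 in Cisplatin and 580.5 to 599.3 in Normal (ratio 1.24). Here too every Cisplatin library lay above every other library, with Cisplatin replicate 3 the highest. The SR proteins summed to 545.5 to 629.4 CPM in RP, 623.3 to 730.8 in Cisplatin and 511.3 to 546.1 in Normal (ratio 1.28), and here the RP and Cisplatin libraries overlapped. The sums are weighted towards the genes with most tags and were not tested.

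**Figure D2:**
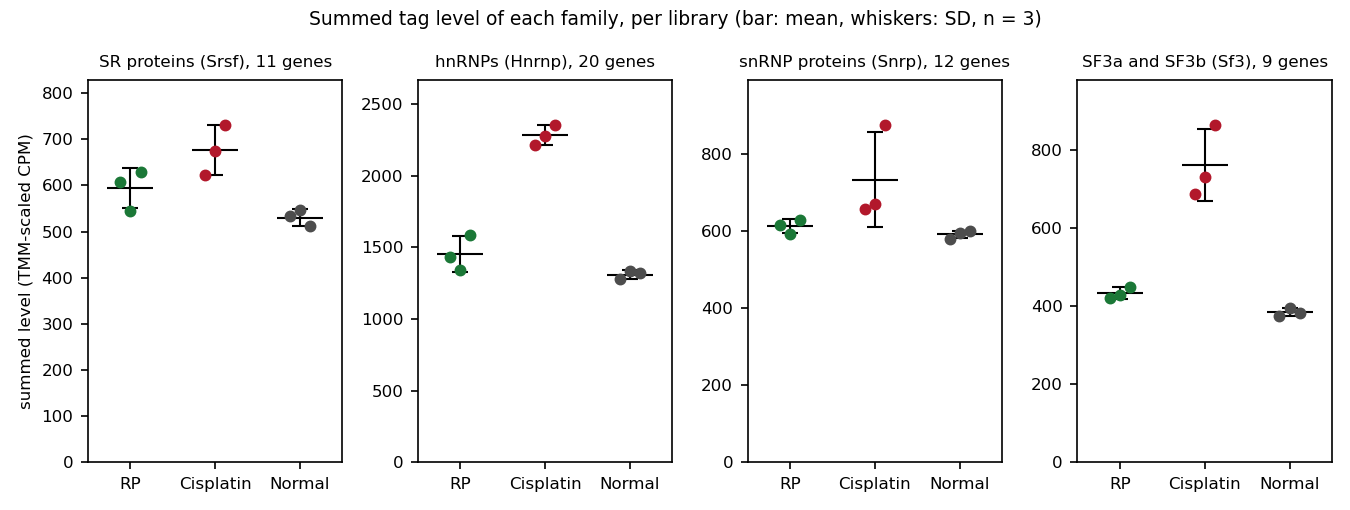
Summed TMM-scaled CPM of each family (y axis, from 0) in the RP, Cisplatin and Normal libraries; points are libraries, the bar is the mean and the whiskers the SD (n = 3). The Cisplatin libraries of the hnRNP, SF3 and snRNP protein panels lie above all others, at 2215 to 2354, 689.0 to 864.8 and 657.3 to 875.7 CPM. Those of the SR protein panel (623.3 to 730.8 CPM) overlap RP.

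SF3b holds the U2 snRNP on the branch point. All 6 SF3b genes that match the rule rose in Cisplatin against Normal (median log2 fold change 1.01), as did 26.3% of all genes. In RP against Cisplatin 5 of 6 fell, as did 24.2% of all genes. Sf3b1, whose protein clamps the branch point helix, had 120, 106 and 125 CPM in RP, 170, 189 and 250 CPM in Cisplatin and 89.5, 101 and 83.5 CPM in Normal. The 3 groups did not overlap, with RP in the middle. Its log2 fold change, given with its SE here and below, was 1.15 ± 0.15 in Cisplatin against Normal (adjusted p = 3.47e-05) and -0.79 ± 0.15 in RP against Cisplatin (adjusted p = 0.000788).

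Sf3b2, which binds pre-mRNA near the branch point, had 144, 149 and 172 CPM in RP, 291, 282 and 347 CPM in Cisplatin and 136, 155 and 156 CPM in Normal. Here RP and Normal overlapped and only Cisplatin stood apart, by a log2 fold change of 1.04 ± 0.13 over Normal (adjusted p = 2.19e-05), and RP against Cisplatin gave -0.98 ± 0.13 (adjusted p = 4.92e-05). Sf3b5, a small structural subunit, had 47.8, 44.6 and 40.3 CPM in RP, 74.1, 74.4 and 73.6 CPM in Cisplatin and 35.6, 40.4 and 34.8 CPM in Normal. The Cisplatin libraries lay close together, and the log2 fold change over Normal was 1.004 ± 0.13 (adjusted p = 2.27e-05). Sf3b6, whose protein lies at the branch point adenosine, had 48.3, 60.7 and 48.9 CPM in RP, 70.0, 95.7 and 106 CPM in Cisplatin and 54.4, 47.8 and 51.5 CPM in Normal. Its rise of 0.82 ± 0.16 over Normal (adjusted p = 0.000778) and its fall of -0.78 ± 0.16 in RP (adjusted p = 0.00135) both passed the threshold.

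The remaining SF3b genes had fewer tags. Sf3b3, a large scaffold subunit, averaged 12.3 ± 2.31 CPM in RP, 20.6 ± 1.06 in Cisplatin and 12.9 ± 2.68 in Normal (SD, n = 3 each), and was called in both Cisplatin against Normal (0.68 ± 0.20, adjusted p = 0.0109) and RP against Cisplatin (-0.74 ± 0.20, adjusted p = 0.00729). Sf3b4, another branch point binder, had 10.2, 14.2 and 13.6 CPM in RP, 17.9, 17.8 and 15.5 CPM in Cisplatin and 6.52, 11.4 and 7.22 CPM in Normal. It rose in Cisplatin against Normal (1.02 ± 0.23, adjusted p = 0.00216), but RP against Cisplatin was not called (-0.42 ± 0.22, adjusted p = 0.131), nor was RP against Normal (0.59 ± 0.23, adjusted p = 0.305). Phf5a, an SF3b subunit whose symbol falls outside the rule, did not follow the other 6: it averaged 70.7 ± 6.26 CPM in RP, 75.6 ± 7.04 in Cisplatin and 68.3 ± 3.04 in Normal, and was not called in Cisplatin against Normal (0.15 ± 0.13, adjusted p = 0.348). Phf5a was singled out after its values were seen.

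SF3a, the partner complex of SF3b in the U2 snRNP, was mixed. Sf3a2 had 11.5, 7.55 and 11 CPM in RP, 20.6, 17.2 and 15.3 CPM in Cisplatin and 9.18, 6.48 and 6.38 CPM in Normal. It rose in Cisplatin against Normal by 1.27 ± 0.23 (adjusted p = 0.000437) and fell in RP against Cisplatin by 0.82 (adjusted p = 0.00812). Sf3a1 averaged 16.4 ± 2.34 CPM in RP, 16.1 ± 2.66 in Cisplatin and 17.6 ± 2.76 in Normal (log2 fold change in Cisplatin against Normal -0.12, adjusted p = 0.618). Sf3a3 averaged 14.0 ± 1.57 CPM in RP, 15.9 ± 5.31 in Cisplatin and 10.7 ± 2.54 in Normal (0.57, adjusted p = 0.0657), with Cisplatin libraries from 11.2 to 21.6 CPM that overlapped both other groups.

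The proteins particular to the U2 snRNP rose with SF3b. Snrpa1 (U2-A′), which binds U2 together with Snrpb2, had 15.9, 17.3 and 12.1 CPM in RP, 33.2, 35.5 and 39.3 CPM in Cisplatin and 13.0, 15.2 and 16.4 CPM in Normal. RP and Normal overlapped, and Cisplatin exceeded both, with log2 fold changes of 1.28 ± 0.17 over Normal (adjusted p = 3.8e-05) and -1.25 ± 0.17 in RP against Cisplatin (adjusted p = 5.85e-05). Snrpb2 had 127, 120 and 142 CPM in RP, 174, 158 and 251 CPM in Cisplatin and 97.6, 110 and 95.1 CPM in Normal. Its 3 groups did not overlap, with RP in the middle, and Cisplatin replicate 3 was the highest library. The log2 fold change was 0.95 ± 0.17 in Cisplatin against Normal (adjusted p = 0.000314) and -0.58 ± 0.16 in RP against Cisplatin (adjusted p = 0.00985). Of the U1 proteins, Snrpa, which binds a stem-loop of U1 RNA, at 7.16 ± 0.856 CPM in RP, 12.4 ± 3.46 in Cisplatin and 6.52 ± 1.20 in Normal, rose in Cisplatin against Normal (0.93 ± 0.25, adjusted p = 0.00727). Snrpc, which helps U1 bind the 5′ splice site, was not called (0.29 ± 0.18, adjusted p = 0.185). Of the 50-base words in the last 300 bases of their transcripts, 22.7% for Snrpa and 19.9% for Snrpc also occur in other genes, so how their reads were divided is uncertain.

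Of the 8 genes of the Sm ring, Snrpg, Snrpe and Snrpd2 rose in Cisplatin against Normal, Snrpn, Snrpb and Snrpf fell, and Snrpd1 and Snrpd3 were not called. With 26.3% of all genes tested risen and 28.2% fallen, these counts do not set the ring apart. The ring's summed level was 432.9 to 452.4 CPM in RP, 422.1 to 549.2 in Cisplatin and 446.5 to 468.2 in Normal, with the 3 groups overlapping. Snrpg (SmG) had 32.2, 29.9 and 38.3 CPM in RP, 55.5, 59.6 and 85.2 CPM in Cisplatin and 28.4, 31.2 and 30.6 CPM in Normal. Every Cisplatin library was above the rest, with log2 fold changes of 1.15 ± 0.17 over Normal (adjusted p = 9.09e-05) and -0.99 ± 0.17 in RP against Cisplatin (adjusted p = 0.000353). Snrpe (SmE) averaged 57.1 ± 1.94 CPM in RP, 79.8 ± 12.0 in Cisplatin and 51.9 ± 3.10 in Normal, and Snrpd2 (SmD2) 56.9 ± 8.05 CPM in RP, 67.6 ± 11.1 in Cisplatin and 48.6 ± 4.75 in Normal. Snrpe rose in Cisplatin against Normal by 0.62 ± 0.14 (adjusted p = 0.00159) and fell in RP against Cisplatin by 0.48 (adjusted p = 0.00904), whereas Snrpd2 rose by 0.47 ± 0.16 (adjusted p = 0.0204) and was not called in RP against Cisplatin (-0.25 ± 0.16, adjusted p = 0.205).

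Among the 51 genes the largest fall was that of Snrpn, which encodes SmN, a close relative of SmB made mainly in brain and heart. Snrpn had 41.5, 39.6 and 31.8 CPM in RP, 9.99, 10.5 and 8.57 CPM in Cisplatin and 35.0, 38.6 and 32.9 CPM in Normal. The RP and Normal libraries overlapped and all Cisplatin libraries were far below them, with a log2 fold change of -1.87 ± 0.16 in Cisplatin against Normal (adjusted p = 9.98e-07) and 1.96 ± 0.16 in RP against Cisplatin (adjusted p = 1.12e-06). Snrpn lies at chr7:59982495-60140219 on the minus strand of GRCm38 in GENCODE, and Snurf is read from the same transcripts. Snrpn held 97.2 to 100% of the count of Snurf in each library, so these 2 symbols are 1 measurement. Snrpb, for SmB itself, had 90.1, 92.6 and 97.1 CPM in RP, 61.6, 62.8 and 51.0 CPM in Cisplatin and 83.2, 101 and 85.8 CPM in Normal. It fell in Cisplatin against Normal (-0.62 ± 0.13, adjusted p = 0.0013) and rose in RP against Cisplatin (0.67 ± 0.13, adjusted p = 0.000909), without overlap in either comparison.

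Snrpf (SmF) had 17.3, 19.4 and 20.8 CPM in RP, 11.8, 10.6 and 7.97 CPM in Cisplatin and 21.98, 17.1 and 15.5 CPM in Normal. The fall in Cisplatin against Normal was -0.85 ± 0.20 (adjusted p = 0.0028) and the rise in RP against Cisplatin 0.92 ± 0.20 (adjusted p = 0.00183). The end of Snrpf overlaps Ccdc38 on the opposite strand, and over the 9 libraries Ccdc38 had 1192 counts beside 1305 of Snrpf. Per library Ccdc38 had 152 to 198 counts in RP, 63 to 96 in Cisplatin and 118 to 168 in Normal. Snrpf had 167 to 206, 67 to 111 and 129 to 182. Without a stated strand setting the reads of the pair cannot be told apart, and the fall may belong to either gene. Snrpd3 (SmD3) spread widely within Cisplatin, at 114, 136 and 192 CPM, beside 107, 108 and 131 CPM in RP and 146, 134 and 178 CPM in Normal. It was not called in Cisplatin against Normal (-0.05, adjusted p = 0.824) or RP against Normal (-0.40, adjusted p = 0.372). RP against Cisplatin was not called either (-0.35, adjusted p = 0.123), but was called without Cisplatin replicate 1 (-0.51, adjusted p = 0.0353). It was also called in a fit with a term for replicate number (-0.33, adjusted p = 0.0492). Snrpd1 (SmD1) gave 0.27 ± 0.14 in Cisplatin against Normal (adjusted p = 0.116).

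**Figure D3:**
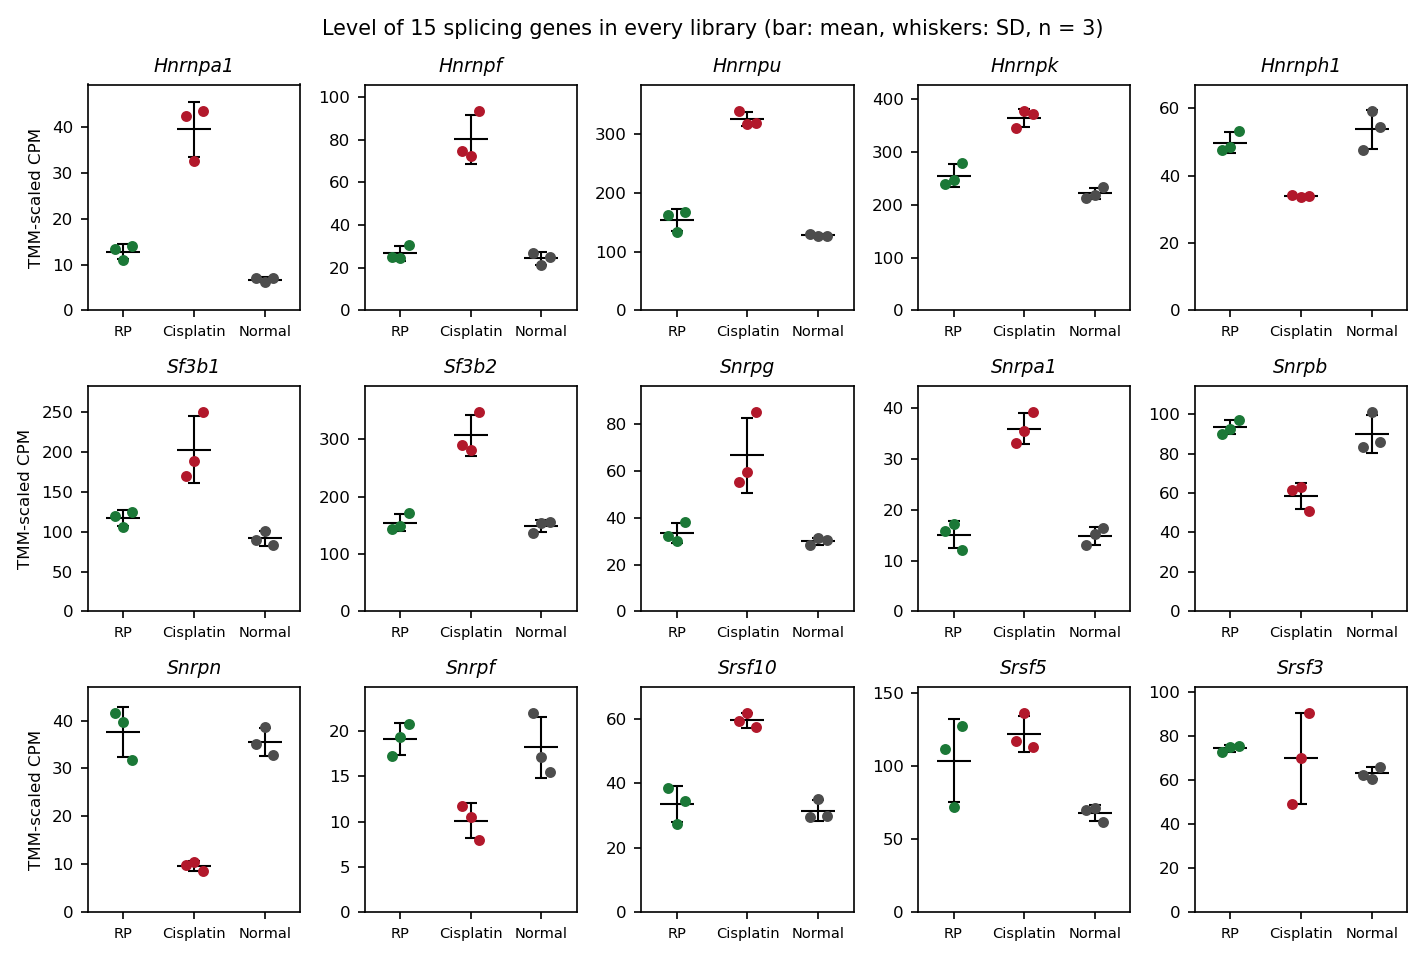
TMM-scaled CPM (y axis, from 0) of 15 genes in the RP, Cisplatin and Normal libraries; points are libraries, the bar is the mean and the whiskers the SD (n = 3). Snrpn, Snrpb, Snrpf and Hnrnph1 are lowest in Cisplatin (Snrpn 8.57 to 10.5 CPM), Hnrnpa1, Hnrnpf, Hnrnpu, Hnrnpk, Sf3b1, Sf3b2, Snrpg, Snrpa1 and Srsf10 are highest there, and Srsf5 and Srsf3 overlap between RP and Cisplatin.

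Among the hnRNPs, 13 of 20 rose in Cisplatin against Normal, 1 fell and 6 were not called. Over all genes tested 26.3% rose and 28.2% fell. The median log2 fold change of the hnRNPs was 0.68. The largest change was in Hnrnpa1, whose protein binds splicing silencers and counters SR proteins such as Srsf1. Hnrnpa1, at chr15:103240432-103246692 on the plus strand, had 13.4, 11.02 and 14.0 CPM in RP, 42.5, 32.7 and 43.5 CPM in Cisplatin and 7.005, 6.13 and 7.10 CPM in Normal. The 3 groups did not overlap, and RP stood in the middle. Cisplatin was 5.86 times Normal (log2 fold change 2.55 ± 0.18, adjusted p = 2.09e-07), and RP against Cisplatin gave -1.62 ± 0.17 (adjusted p = 8.01e-06). Of its relatives, Hnrnpa2b1 rose by 0.72 ± 0.13 (adjusted p = 0.000399) and Hnrnpa0 by 0.40 ± 0.13 (adjusted p = 0.0199), while Hnrnpa3 was not called (0.30 ± 0.15, adjusted p = 0.106). Of the 50-base words of the Hnrnpa3 ends, 39.0% occur in 35 other genes, 34 of them pseudogenes.

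Hnrnpf and Hnrnph1, close relatives that bind runs of G, moved in opposite directions. Hnrnpf had 25.0, 24.5 and 30.5 CPM in RP, 74.6, 72.3 and 93.4 CPM in Cisplatin and 27.1, 21.1 and 25.0 CPM in Normal. Cisplatin exceeded Normal by 1.72 ± 0.16 (adjusted p = 1.55e-06) and RP was lower than Cisplatin by -1.59 ± 0.16 (adjusted p = 4.35e-06), with RP and Normal overlapping. Of the 50-base words in the Hnrnpf ends, 46.8% also occur in 7 pseudogenes, so its level is uncertain. Hnrnph1 had 47.5, 48.6 and 53.3 CPM in RP, 34.2, 33.6 and 33.9 CPM in Cisplatin and 47.6, 59.2 and 54.5 CPM in Normal. It was the hnRNP that fell in Cisplatin against Normal (-0.67 ± 0.13, adjusted p = 0.000745), and it rose in RP against Cisplatin (0.56 ± 0.13, adjusted p = 0.00319). Hnrnph2 and Hnrnph3 were not called in Cisplatin against Normal (0.36 ± 0.16 and 0.33 ± 0.16, adjusted p = 0.0801 and 0.0919) but fell in RP against Cisplatin (-0.56 ± 0.16 and -0.42 ± 0.16, adjusted p = 0.0129 and 0.0395).

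Hnrnpu, a nuclear scaffold protein that binds both RNA and chromatin, had 162, 134 and 168 CPM in RP, 340, 318 and 320 CPM in Cisplatin and 130, 127 and 127 CPM in Normal. Its libraries formed 3 separate groups, with log2 fold changes of 1.35 ± 0.12 in Cisplatin against Normal (adjusted p = 1.49e-06) and -1.07 ± 0.12 in RP against Cisplatin (adjusted p = 1.53e-05). Hnrnpm, an alternative splicing factor that binds GU-rich RNA, had 79.1, 75.9 and 101 CPM in RP, 190, 194 and 181 CPM in Cisplatin and 86.7, 76.8 and 96.5 CPM in Normal. Its rise of 1.12 ± 0.14 over Normal (adjusted p = 1.92e-05) stood beside -1.14 ± 0.14 in RP against Cisplatin (adjusted p = 2.44e-05), and RP and Normal overlapped. Hnrnpdl, a relative of the mRNA decay factor Hnrnpd, averaged 165 ± 22.4 CPM in RP, 268 ± 21.0 in Cisplatin and 130 ± 10.4 in Normal (1.04 ± 0.14 in Cisplatin against Normal, adjusted p = 2.79e-05).

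The hnRNPs with smaller rises were nonetheless without overlap between Cisplatin and Normal. Hnrnpab averaged 131 ± 5.26 CPM in RP, 208 ± 14.9 in Cisplatin and 117 ± 8.56 in Normal (0.83 ± 0.12, adjusted p = 6.24e-05). Hnrnpk, which binds C-rich RNA, had 239, 247 and 280 CPM in RP, 346, 378 and 372 CPM in Cisplatin and 214, 219 and 234 CPM in Normal. Its groups did not overlap, and Cisplatin exceeded Normal by 0.72 ± 0.12 (adjusted p = 0.000219), with -0.52 ± 0.12 in RP against Cisplatin (adjusted p = 0.00286). Hnrnpd (0.70), Hnrnpul2 (0.69), Hnrnpc (0.67), a binder of U-rich RNA, and Hnrnpr (0.37) rose as well, each by the log2 fold change given. For Hnrnpk 33.9% of the 50-base words occur in 2 pseudogenes, and for Hnrnpc 10.1% in 1. Hnrnpl and Hnrnpll, the paralogs that bind CA repeats, did not pass in any comparison: Hnrnpl averaged 31.2 ± 4.52 CPM in RP, 26.9 ± 7.70 in Cisplatin and 28.2 ± 3.62 in Normal, and Hnrnpll 12.1 ± 1.71 CPM in RP, 12.4 ± 2.71 in Cisplatin and 12.2 ± 0.667 in Normal. Hnrnpul1 had few tags, at 2.04 to 4.70 CPM over the 9 libraries (0.52 ± 0.36, adjusted p = 0.236).

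Of the 10 SR protein genes tested, 4 rose in Cisplatin against Normal, 2 fell and 4 were not called, with a median log2 fold change of 0.11. These counts are near the shares of all genes tested, of which 26.3% rose and 28.2% fell. Srsf10, which represses splicing when dephosphorylated under heat shock, had 38.7, 27.4 and 34.5 CPM in RP, 59.2, 61.7 and 57.3 CPM in Cisplatin and 29.5, 35.1 and 29.8 CPM in Normal. Cisplatin stood clear of the overlapping RP and Normal libraries, by 0.92 ± 0.15 over Normal (adjusted p = 0.000187) and -0.83 ± 0.15 in RP against Cisplatin (adjusted p = 0.000505). Srsf11 averaged 117 ± 6.61 CPM in RP, 177 ± 33.3 in Cisplatin and 110 ± 5.94 in Normal, a rise of 0.68 ± 0.14 (adjusted p = 0.00105). In RP against Cisplatin Srsf11 gave -0.60 ± 0.14 (adjusted p = 0.00299).

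Srsf5, an SR protein that promotes exon use, had 111, 72.2 and 127 CPM in RP, 117, 136 and 113 CPM in Cisplatin and 69.7, 71.6 and 61.4 CPM in Normal. RP replicate 2 lay beside the Normal libraries and the other 2 RP libraries beside those of Cisplatin. Srsf5 rose in Cisplatin against Normal (0.85 ± 0.18, adjusted p = 0.00131) and was not called in RP against Cisplatin (-0.24 ± 0.18, adjusted p = 0.293) or RP against Normal (0.62 ± 0.18, adjusted p = 0.17). RP against Normal was called for Srsf5 without RP replicate 2 (0.82, adjusted p = 0.0168). It was also called with all libraries and no filter (0.62, adjusted p = 0.0437). Srsf7, which also carries mRNA out of the nucleus, averaged 38.4 ± 5.57 CPM in RP, 46.6 ± 6.71 in Cisplatin and 32.2 ± 3.12 in Normal (0.53 ± 0.16 in Cisplatin against Normal, adjusted p = 0.0111; -0.28 ± 0.16 in RP against Cisplatin, adjusted p = 0.153).

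Srsf9 and Srsf1 fell. Srsf9 had 33.8, 41.5 and 41.9 CPM in RP, 27.3, 29.4 and 22.4 CPM in Cisplatin and 35.5, 41.4 and 38.1 CPM in Normal, with Cisplatin below both other groups. It fell in Cisplatin against Normal by 0.54 (adjusted p = 0.00848) and rose in RP against Cisplatin by 0.57 ± 0.15 (adjusted p = 0.00727). Srsf1, the SR protein that Hnrnpa1 is known to counter, had 55.1, 53.8 and 55.9 CPM in RP, 46.3, 42.8 and 39.4 CPM in Cisplatin and 61.6, 55.3 and 51.5 CPM in Normal. The groups did not overlap in Cisplatin against Normal (-0.39 ± 0.13, adjusted p = 0.0195) or RP against Cisplatin (0.36 ± 0.13, adjusted p = 0.0317). Both calls of Srsf1 were near the threshold: its fall was lost without Normal replicate 1, Cisplatin replicate 2 or Cisplatin replicate 3 (adjusted p = 0.0998, 0.0501 and 0.0699), leaving 1 fallen SR protein. Its rise in RP was lost without any 1 of Cisplatin replicates 2 and 3 and the 3 RP replicates, and with no filter (adjusted p from 0.0548 to 0.0999), leaving 1 risen SR protein.

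The other SR proteins did not pass in Cisplatin against Normal. Srsf3 spread within Cisplatin at 49.2, 70.0 and 90.3 CPM, beside 72.5, 75.0 and 75.5 CPM in RP and 62.4, 60.6 and 66.1 CPM in Normal (0.15 ± 0.18, adjusted p = 0.503). Srsf2 averaged 80.6 ± 13.0 CPM in RP, 82.2 ± 5.98 in Cisplatin and 83.6 ± 3.71 in Normal (-0.02 ± 0.14, adjusted p = 0.895). Srsf6 averaged 36.2 ± 4.84 CPM in RP, 33.2 ± 0.444 in Cisplatin and 31.5 ± 1.20 in Normal (0.07 ± 0.14, adjusted p = 0.679). Srsf4 averaged 16.4 ± 1.31 CPM in RP, 16.8 ± 3.50 in Cisplatin and 16.1 ± 2.60 in Normal (0.07 ± 0.20, adjusted p = 0.795). The ends of Srsf4 and Srsf2 overlap Gm12992 and Mettl23 on the opposite strand, which had 1452 and 2895 counts beside 1358 of Srsf4 and 6745 of Srsf2. These levels are shared with those genes to an unknown extent. Gm12992 lay close to Srsf4 in single libraries too, for example 225 beside 210 counts in Cisplatin replicate 2 and 118 beside 109 in Normal replicate 3. The end of Hnrnpab overlaps Phykpl on the opposite strand as well, with 12567 and 1993 counts, and how far reads are shared is unknown here too. Phykpl had 15.9% of the Hnrnpab count. It had 172 to 249 counts in Normal and 137 to 227 in Cisplatin, beside 900 to 1088 and 1650 to 2175 of Hnrnpab.

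**Figure D4:**
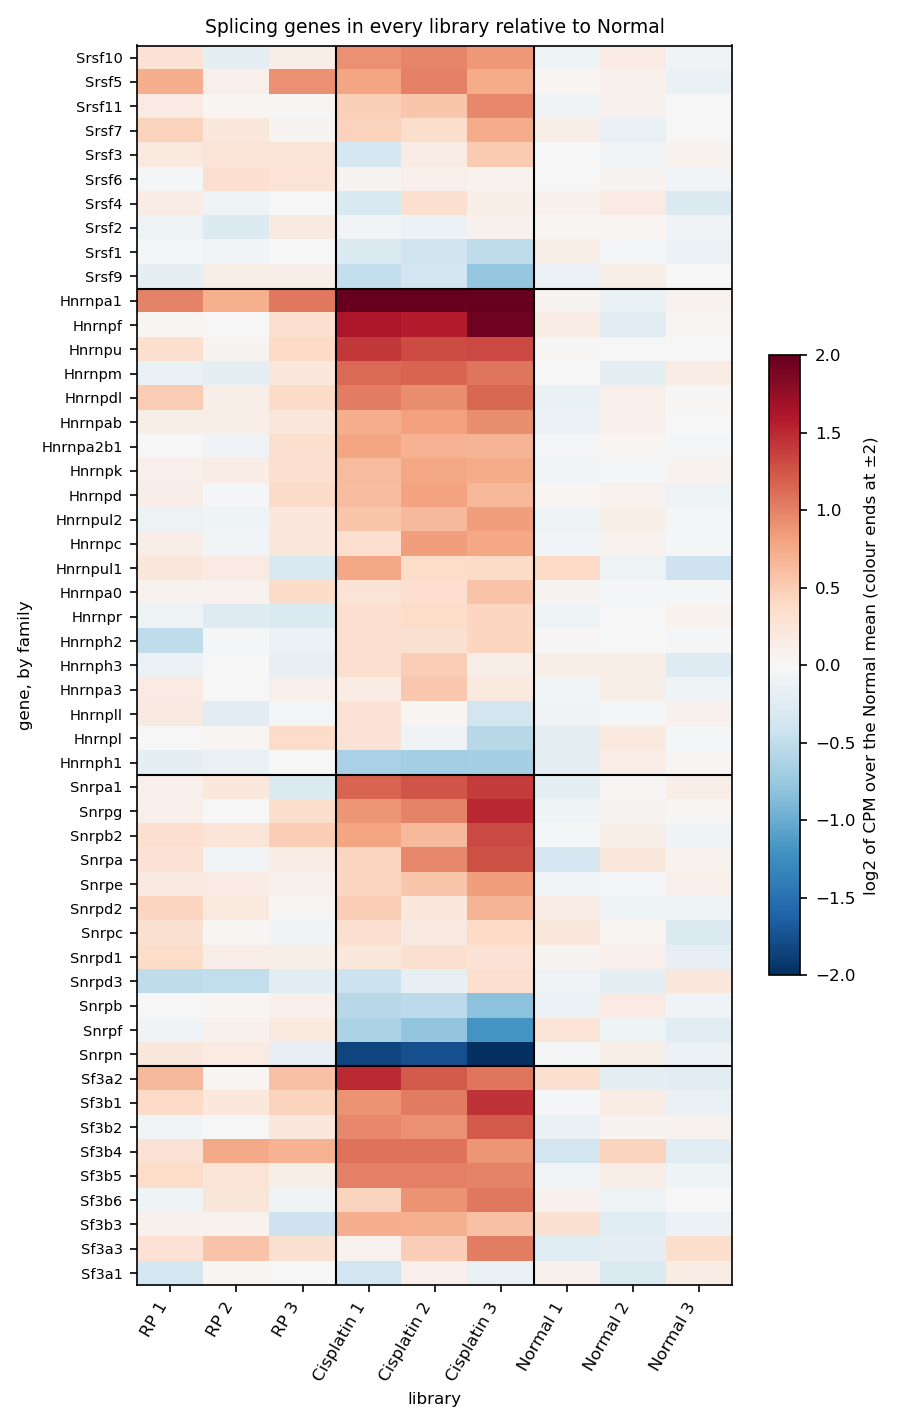
Colour gives the log2 ratio of each library's CPM to the Normal mean for 51 genes (rows, by family) in the RP, Cisplatin and Normal libraries (columns); colours end at ±2. The Cisplatin columns are red for most hnRNP and SF3 genes and blue for Hnrnph1, Snrpb, Snrpf, Snrpn, Srsf1 and Srsf9, and the RP columns are paler, with Hnrnpa1 the reddest row.

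Setting RP beside Cisplatin shows how muscle of cisplatin-treated mice differed when RP was given as well. By family, 14 of 20 hnRNPs fell and 1 rose, and 6 of 9 SF3a and SF3b genes fell and none rose. Of the snRNP proteins 5 of 12 fell and 3 rose, and of the SR proteins 2 of 10 fell and 2 rose. Over all genes tested 24.2% fell and 24.6% rose, near the SR protein counts and the snRNP protein rises. Of the 51 genes, 24 were called higher in Cisplatin against Normal, lower in RP against Cisplatin and were not called in RP against Normal (47.1%, against 21.5% of all genes tested). Another 6 had the reverse pattern (11.8%, against 21.5% of all genes): Hnrnph1, Snrpb, Snrpf, Snrpn, Srsf1 and Srsf9. A further 5 rose in Cisplatin against Normal and were called in neither other comparison, a pattern of 4.68% of all genes (Hnrnpa0, Sf3b4, Snrpd2, Srsf5 and Srsf7), Hnrnph2 and Hnrnph3 fell in RP against Cisplatin alone, as did 2.6% of all genes, 13 were called in none, as were 39.9% of all genes, and Hnrnpa1 was called in all 3. Of the 30 genes that rose with Cisplatin, the RP mean lay between the other 2 means for 27 and below both for Hnrnpm, Hnrnpr and Sf3b3, where it lay between for 73.6% of all 3382 genes that rose. Of the 6 that fell, the RP mean lay between them for Hnrnph1 and Srsf1 and above both for Snrpb, Snrpf, Snrpn and Srsf9, where it lay between for 77.0% of all 3630 genes that fell. None of these 7 placements outside the other means passed the test in RP against Normal, where the log2 fold changes of the 7 ran from -0.21 to 0.08.

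In RP against Normal, Hnrnpa1 was higher by 0.93 ± 0.19 (adjusted p = 0.0458), with each RP library (13.4, 11.02 and 14.0 CPM) above each Normal library (7.005, 6.13 and 7.10 CPM). This call was lost in a fit of the 2 groups alone (adjusted p = 0.0835), with limma-voom (0.102), and without Normal replicate 1, 2 or 3, Cisplatin replicate 1 or 2, or RP replicate 1 or 3, where adjusted p ran from 0.0521 to 0.221 and log2 fold changes from 0.86 to 0.97. At an unadjusted p under 0.05, 7 genes were higher and 1 lower in RP than in Normal. The share of all genes at that threshold was not counted, so these counts cannot be read as an excess. At the adjusted threshold DESeq2 called 1 higher and limma-voom 0. None fell. After Hnrnpa1, the positive log2 fold changes were largest for Srsf5 (0.62 ± 0.18, adjusted p = 0.17) and Sf3b4 (0.59 ± 0.23, adjusted p = 0.305), and the most negative was that of Snrpd3 (-0.40 ± 0.18, adjusted p = 0.372). An adjusted p above the threshold does not show that RP and Normal levels are equal.

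Other parts of the splicing machinery were read from lists of 114 genes outside the symbol rule, chosen with earlier results of these data known. Of these genes 113 were tested. With Cisplatin 66 of them rose against Normal and 10 fell (median 0.56), and in RP against Cisplatin 57 fell and 12 rose, beside the shares of all genes given above. None was called in RP against Normal, where DESeq2 called 1 higher and limma-voom 0. At an unadjusted p under 0.05, 7 were higher and 1 lower, again without a count over all genes. The factors that pick the branch point with SF3 rose in 7 of 10 cases, among them U2af1, which reads the 3′ splice site (1.31 ± 0.15, adjusted p = 9.83e-06), and the helicase gene Dhx15 (1.23 ± 0.14, adjusted p = 1.08e-05). U2af1 averaged 27.9 ± 2.85 CPM in RP, 43.8 ± 4.87 in Cisplatin and 17.7 ± 1.29 in Normal. Of the tri-snRNP and PRP19 complex genes, which form the active spliceosome, 15 of 20 rose and none fell. Prpf6, a bridge within the tri-snRNP, averaged 63.8 ± 13.0 CPM in RP, 186 ± 20.3 in Cisplatin and 62.1 ± 3.43 in Normal (1.58 ± 0.16, adjusted p = 2.96e-06), and Ctnnbl1, of the PRP19-associated proteins, 13.8 ± 2.23 CPM in RP, 51.2 ± 19.7 in Cisplatin and 9.88 ± 1.76 in Normal (2.37 ± 0.25, adjusted p = 5.64e-06).

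The 7 genes with Snrnp symbols, which encode further proteins of the U1, U5, tri-snRNP and minor spliceosomal particles, gave 4 risen and 2 fallen genes. Snrnp48, a protein of the minor spliceosome, averaged 64.1 ± 14.4 CPM in RP, 259 ± 71.4 in Cisplatin and 54.8 ± 4.66 in Normal (2.24 ± 0.21, adjusted p = 1.47e-06), and the U5 helicase gene Snrnp200 rose by 1.07 ± 0.15 (adjusted p = 5.24e-05). The LSm proteins, which form the ring of U6 and of mRNA decay, rose in 2 and fell in 1 of 8 cases. Over all genes tested 26.3% rose and 28.2% fell, near the LSm rises and the Snrnp falls. Lsm6 averaged 197 ± 19.2 CPM in RP, 91.6 ± 10.5 in Cisplatin and 169 ± 17.5 in Normal (-0.88 ± 0.14, adjusted p = 0.000119), and Lsm4 rose by 0.56 ± 0.15 (adjusted p = 0.00606). Of the SMN complex and its methylation partners, which load Sm proteins onto snRNA, 7 of 12 rose and none fell, with Gemin5 at 1.28 ± 0.19 (adjusted p = 8.15e-05) and the methyltransferase gene Prmt5 at 0.81 ± 0.12 (adjusted p = 0.000101).

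Among genes acting on SR proteins, 6 of 9 kinases rose and 1 fell, with the smallest p for Clk4 (1.12 ± 0.21, adjusted p = 0.000608) and Clk1 (0.80 ± 0.17, adjusted p = 0.00117), which phosphorylate SR proteins in the nucleus. SR-related proteins rose in 6 of 11 cases and none fell, with Srrm2, a core protein of nuclear speckles, at 277 ± 41.9 CPM in RP, 530 ± 93.3 in Cisplatin and 233 ± 3.21 in Normal (1.18 ± 0.16, adjusted p = 2.92e-05) and Pnn at 1.18 ± 0.17 (adjusted p = 5.31e-05). Exon junction complex genes rose in 7 of 8 cases, including its anchor Eif4a3 (1.08 ± 0.13, adjusted p = 1.96e-05) and Magoh (1.10 ± 0.14, adjusted p = 2.86e-05). Tissue regulators of splicing split, with 12 of 28 risen and 6 fallen. Beside the counts of these lists, 26.3% of all genes tested rose and 28.2% fell. Matr3 (1.18 ± 0.14, adjusted p = 1.47e-05) and Sfpq (1.01 ± 0.12, adjusted p = 9.64e-06), both nuclear RNA-binding proteins, rose. The 6 that fell were Rbm38, Mbnl3, Nova1, Mbnl1, Celf2 and Rbfox2. Mbnl1, the muscleblind factor that sets adult muscle isoforms, was singled out after its values were seen, at 603 ± 44.6 CPM in RP, 391 ± 31.3 in Cisplatin and 553 ± 10.5 in Normal (-0.50 ± 0.12, adjusted p = 0.0035). Other genes of the same list went the other way, among them Rbm20 (1.45 ± 0.18, adjusted p = 1.96e-05) and Celf1 (0.67 ± 0.13, adjusted p = 0.000626). Mbnl2 and Rbfox1 were not called.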

How the data were processed

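Each of the 9 libraries was made from total RNA with the Lexogen QuantSeq 3′ kit, per the labels' protocols. The authors deposited 1 file of raw read counts per library, with 23282 rows of symbol and count. Bowtie2, edgeR and mm10 are named, per the submitters' processing notes, without roles. Not given in the sources used here: versions, counting program, strandedness, annotation. From the counts, 79 rows that share 35 symbols were summed; none held one of the 52 genes. No pair of replicates matched as copies would (chi-square per degree of freedom 12.1 to 31.0).

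Genes passing filterByExpr (12859) were fitted with edgeR 4.0.16 in R 4.3.3: TMM factors, a model of all 9 libraries by group (glmQLFit), the quasi-likelihood test (glmQLFTest), and Benjamini-Hochberg adjustment over all genes. Each SE is the log2 fold change over the square root of F. The fit was tested on simulated data with known changes before use.

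Genes described singly are, per family, the 7 of smallest p in Cisplatin against Normal, the 3 of smallest p in each other comparison and the 2 of highest mean, and 2 per other splicing list; further genes were named after their values were seen. Fbxo32 and Trim63, muscle E3 ubiquitin ligase genes, averaged (± SD, 3 libraries) 500 ± 189 and 615 ± 170 CPM in RP, 10080 ± 1860 and 10340 ± 1335 in Cisplatin, and 383 ± 77.1 and 545 ± 98.9 in Normal. The genes and lists were chosen with earlier results of these data known. Positions are from GENCODE on GRCm38 and promoters from RefSeq; overlaps and shared 50-base words were read from the last 300 transcript bases. Alternatives were RLE and library-size scaling, other filters, DESeq2 1.42.0, limma-voom (limma 3.58.1), fitting only the pair compared, a replicate block, and dropping single libraries.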

Additional observations from a re-analysis of the deposited data

How the results depend on the processing

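In Cisplatin against Normal the count of risen genes was 29 to 31 and that of fallen genes 6 under every alternative that kept all libraries, and 27 to 31 and 5 to 6 with 1 library left out. In RP against Cisplatin fallen genes numbered 25 to 28 and risen genes 5 to 6, and 25 to 27 and 5 to 6 with 1 library left out. Risen genes in RP against Normal numbered 1, but 2 with no filter, 0 with limma-voom, 0 in a fit of the compared groups only, and 0 to 2 with 1 library left out; fallen genes numbered 0 throughout. No result reversed, and the cause of the moved counts was not tested. With library size as the only scaling, the median of all genes shifted to -0.15 in Cisplatin against Normal and 0.21 in RP against Cisplatin, and that of the splicing genes was 0.53 and -0.33. The labels give groups the same replicate numbers but state no shared source. Correlations of deviations from the group means were -0.124 to 0.158 between same-numbered libraries of different groups. Between differently numbered libraries they were -0.19 to 0.115. With the replicate block, 31 genes rose and 6 fell in Cisplatin against Normal, 6 rose and 28 fell in RP against Cisplatin, and 1 rose in RP against Normal. Genes with few counts, such as Srsf12 and Hnrnpul1, are limited by depth.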
